A study of Homo sapiens with 6 samples.

Results

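PLOD2 encodes a lysyl hydroxylase, and it is described here together with 9 other genes that modify or fold collagen in the endoplasmic reticulum. The 10 genes are the lysyl hydroxylases PLOD1, PLOD2 and PLOD3, the galactosyltransferase COLGALT1, the prolyl 4-hydroxylase subunits P4HA1, P4HA2 and P4HB, the prolyl 3-hydroxylase P3H1, and the chaperones FKBP10 and SERPINH1. PLOD2 was chosen by its measured fall with glycine in these same libraries, so its values are a description and carry no test, and the other 9 genes were taken by function. They are 10 of 57500 genes listed and 10 of the 15492 genes with enough counts to be tested.

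RNA was sequenced from wild-type HepG2 cells, an established hepatocellular carcinoma line, in 6 libraries. A group of 3 received 10 mM glycine for 24 h and a group of 3 received vehicle. All cells grew in the same standard medium, which itself contains some glycine, so the vehicle group was not free of it. The study describes the 3 libraries of a group as biological replicates and defines these in general as experiments on different days, although the labels give no day or culture for a library. Totals ran from 31795489 to 58815986 counts per library, and 1 count was worth 0.0170 to 0.0315 CPM, a unit that sets the count of a gene against the size of its library. CPM values below use effective library sizes (trimmed mean of M values, TMM). Over all tested genes, 13.3% passed the edgeR quasi-likelihood test at a Benjamini-Hochberg adjusted p under 0.05, with 6.71% higher and 6.54% lower with glycine, and the median log2 change was 0.00. In bulk RNA, fewer cells expressing a gene and less RNA per cell cannot be told apart.

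Collagen chains are hydroxylated on proline and lysine as they enter the endoplasmic reticulum. Prolyl 4-hydroxylation keeps the triple helix stable at body temperature, and lysyl hydroxylation provides the sites for sugar attachment and for the cross-links that later join collagen molecules. The hydroxylases need iron, oxygen, 2-oxoglutarate and ascorbate, and several of their genes are known targets of the hypoxia-inducible factors (HIF). Glycine is a major residue of every collagen helix. In liver, stellate cells and fibroblasts are the main source of fibrillar collagen, while hepatocytes and hepatoma cells carry the same modifying enzymes.

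Promoter windows are shown for PLOD2, the gene with the lowest log2 change, and for the chaperone that was higher. They are also shown for the catalytic prolyl 4-hydroxylase subunits P4HA1 and P4HA2, which were also lower with glycine. Each covers the 250 bases before a RefSeq start (GRCh38.p14), written 5′ to 3′ on the strand of the gene. Capitals in the PLOD2 and P4HA1 windows mark the HIF core letters ACGTG or GCGTG or their reverse complements. Capitals in the SERPINH1 window mark a heat shock element, searched on both strands as GAA, TTC and GAA with 2 bases between them. The PLOD2 window lies at chr3:146161185-146161434 (minus strand), the P4HA1 window at chr10:73096867-73097116 (minus strand), the P4HA2 window at chr5:132227092-132227341 (minus strand) and the SERPINH1 window at chr11:75562003-75562252 (plus strand).
PLOD2: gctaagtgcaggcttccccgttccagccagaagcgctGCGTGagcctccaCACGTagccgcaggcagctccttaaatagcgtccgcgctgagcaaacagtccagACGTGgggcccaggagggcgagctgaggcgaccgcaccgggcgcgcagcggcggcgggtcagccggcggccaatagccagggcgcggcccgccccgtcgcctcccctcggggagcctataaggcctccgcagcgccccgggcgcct
P4HA1: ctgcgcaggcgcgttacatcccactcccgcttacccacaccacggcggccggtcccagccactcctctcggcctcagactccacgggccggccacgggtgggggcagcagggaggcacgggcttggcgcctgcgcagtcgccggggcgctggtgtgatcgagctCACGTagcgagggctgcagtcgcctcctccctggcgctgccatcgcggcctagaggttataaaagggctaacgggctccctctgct
P4HA2: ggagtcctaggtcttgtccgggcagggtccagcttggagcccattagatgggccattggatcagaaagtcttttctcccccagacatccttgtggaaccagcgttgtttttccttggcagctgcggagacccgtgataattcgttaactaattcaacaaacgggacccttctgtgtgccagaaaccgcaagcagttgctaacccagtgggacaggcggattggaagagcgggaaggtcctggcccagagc
SERPINH1: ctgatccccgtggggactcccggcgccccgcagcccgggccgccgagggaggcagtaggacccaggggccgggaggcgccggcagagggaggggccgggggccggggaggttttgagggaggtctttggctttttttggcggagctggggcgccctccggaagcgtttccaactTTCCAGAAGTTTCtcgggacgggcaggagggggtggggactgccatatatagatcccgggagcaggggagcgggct

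The PLOD2 window held ACGTG at 2 places, bases -200 to -196 (minus) and -146 to -142 (plus) from the start, and GCGTG at bases -213 to -209. P4HA1 held ACGTG once, at -86 to -82, and P4HA2 held neither core. Of the 10 genes, 9 had a RefSeq window, and 7 of these held at least 1 HIF core, against 43.2% of 35116 windows. ACGTG was in 3 of the 9, against 18.5% of windows of the same length. The 7 were PLOD2, P4HA1 and P3H1, which were lower with glycine, SERPINH1, which was higher, and PLOD1, P4HB and COLGALT1, which were not called. The windows of P3H1, PLOD1, P4HB and COLGALT1 are not shown. A gene counted if any of its windows held a core, while the shares over all windows count single windows. These short cores are common, so such matches are a description of letters and not of binding. G and C made up 72.4% of the PLOD2 window, 70.0% of P4HA1 and 54.8% of P4HA2, against a median of 58.0% over all windows. Whether that content plays a part in the matches was not tested. The heat shock element was in 0.441% of all windows and in 1 of the 9 genes, SERPINH1, at bases -76 to -64. CCAAT occurred in the windows of 4 genes (P4HA2, P4HB, PLOD2 and SERPINH1) and in 32.01% of all windows. TGANTCA, the AP-1 letters, occurred in 0 of the 9 genes and in 6.57% of all windows. The PLOD2 and P4HA2 windows lie inside the annotated gene spans, because the annotation deposited with the counts has exons that begin further upstream. SERPINH1 has a second RefSeq window, not shown, which held both HIF cores and CCAAT. The shown window held none of these, so the gene entered both HIF core counts and the CCAAT count through the second window alone. No window was matched for FKBP10.

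PLOD2 RNA was 2.86-fold lower in the glycine libraries than in the vehicle libraries. The gene (ENSG00000152952, GRCh38 chromosome 3, 146069440 to 146163653, minus strand) encodes the lysyl hydroxylase that acts on the telopeptides of collagen, and its product is known for directing the stable cross-links of fibrotic tissue. Its level was 275, 265 and 268 CPM in the vehicle libraries and 94.3, 88.4 and 99.9 CPM in the glycine libraries, from 9260 to 9635 counts and 3010 to 5176 counts per library. All 3 glycine libraries lay below all 3 vehicle libraries, with a gap of 165.6 CPM between the groups. The mean went from 269 ± 5.03 to 94.2 ± 5.72 CPM (SD, n = 3), or by log2 a change of -1.52 and a level that decreased by 65.0%. Of the 9111 genes averaging 10 CPM or more, 3 fell by more, a rank that follows from how PLOD2 was chosen. In the vehicle group PLOD2 was above 95.9% of the tested genes in CPM, so it was not a gene at the edge of detection. Across 14 other settings of the fit, including leaving out each library, its log2 change stayed between -1.57 and -1.47.

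**Figure D1:**
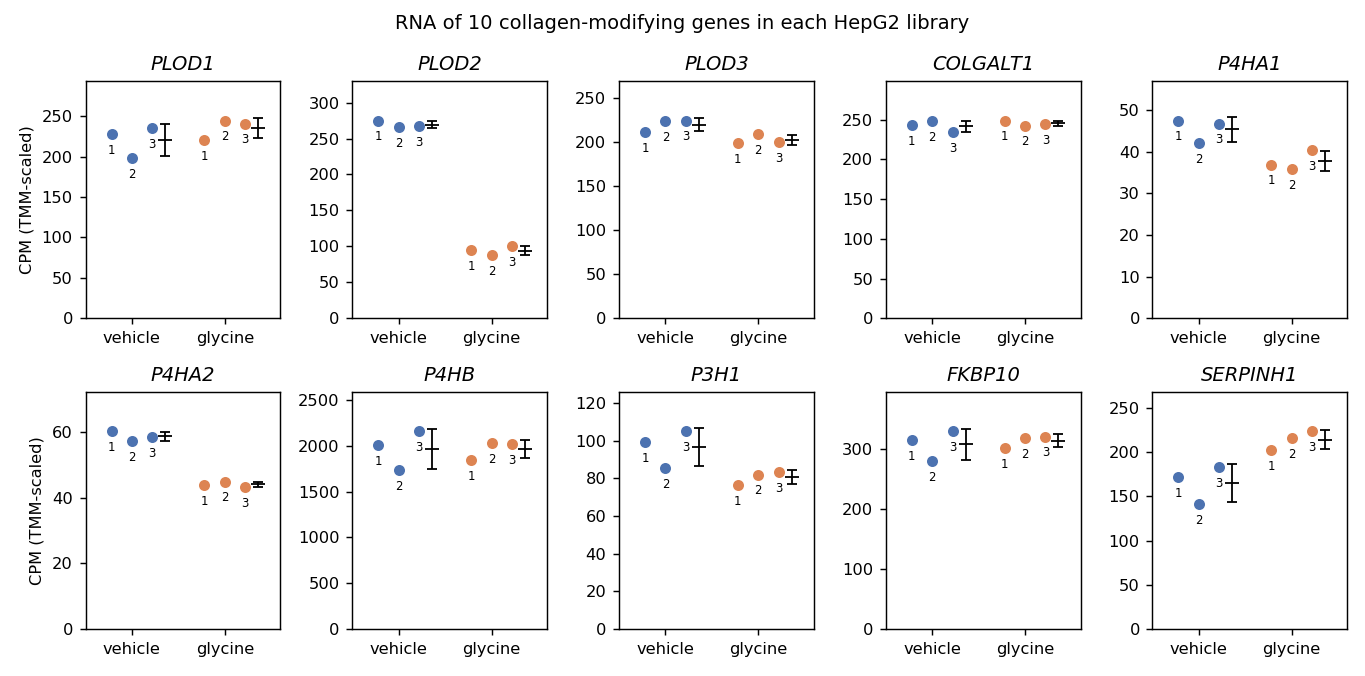
RNA of the 10 genes in each library, in TMM-scaled CPM on linear axes that start at 0. Points are single libraries with their replicate number, blue for vehicle and orange for glycine, and the bar beside each group is the mean ± SD (n = 3). PLOD2 shows the widest separation, from 265 to 275 CPM down to 88.4 to 99.9 CPM.

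The other lysyl hydroxylases did not pass the test. PLOD1 (ENSG00000083444, chromosome 1, 11934205 to 11975538), which hydroxylates lysines within the helix, measured 228, 199 and 236 CPM with vehicle and 221, 245 and 241 CPM with glycine. The groups overlapped, and the log2 change was 0.09 ± 0.08 (SE; 95% interval -0.07 to 0.26; edgeR adjusted p = 0.463). PLOD3 (ENSG00000106397, chromosome 7, 101205977 to 101218420), whose product also adds sugars to hydroxylysine, measured 211, 224 and 225 CPM with vehicle and 199, 209 and 201 CPM with glycine. Its groups were separated by only 1.98 CPM, and the log2 change was -0.12 ± 0.06 (SE; 95% interval -0.25 to 0.01; edgeR adjusted p = 0.238). The exons of PLOD3 overlap another gene over 7.57% of their length, and the strand setting of the counting is not given in the sources used here.

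As a result the make-up of lysyl hydroxylase RNA shifted. Per kilobase of exon, PLOD2 held 30.5% ± 0.936 of the PLOD1 to PLOD3 RNA with vehicle (SD, n = 3; range 29.4 to 31.1%) and 13.3% ± 0.956 with glycine (range 12.2 to 13.9%). PLOD1 went from 35.9% to 47.9% and PLOD3 from 33.6% to 38.7% of that sum. The sum itself was 116 ± 3.66 CPM per kilobase with vehicle and 92.4 ± 3.02 with glycine. PLOD1 and PLOD3 alone summed to 80.3 and 80.1 CPM per kilobase, a change of -0.317%. The shift in shares therefore came from the lower PLOD2 value and follows from how PLOD2 was chosen. Counted in reads rather than per length, the PLOD2 share was 37.9% with vehicle and 17.7% with glycine. Within single libraries it was 36.7 to 38.5% of 24022 to 26171 reads with vehicle and 16.3 to 18.4% of 16413 to 31751 reads with glycine.

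**Figure D2:**
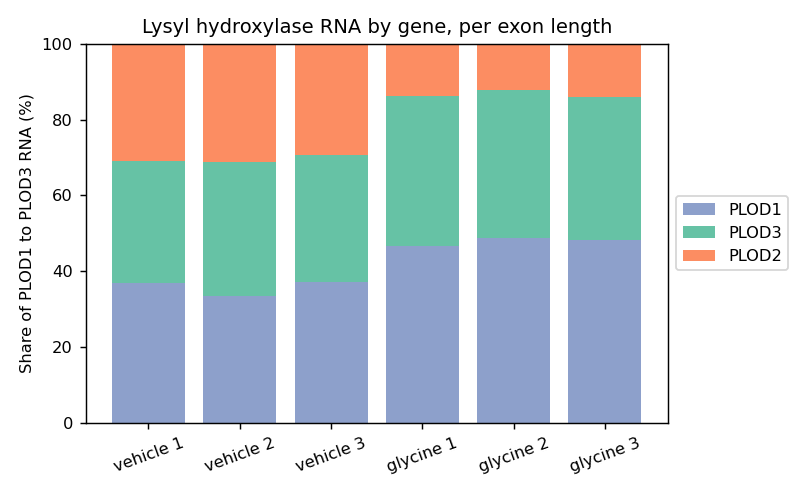
Share of PLOD1, PLOD3 and PLOD2 in their summed RNA in each library, in percent of CPM per kilobase of exon. PLOD2, the top segment, takes 29.4 to 31.1% in the vehicle libraries and 12.2 to 13.9% in the glycine libraries.

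COLGALT1 (ENSG00000130309, chromosome 19, 17555594 to 17583162), which attaches galactose to the hydroxylysine that the PLOD enzymes make, did not pass the test. It measured 243, 248 and 234 CPM with vehicle and 249, 243 and 245 CPM with glycine. The groups overlapped, the log2 change was 0.02 ± 0.06 (SE; edgeR adjusted p = 0.859), and the 95% interval ran from -0.11 to 0.15.

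The catalytic subunits P4HA1 and P4HA2 of collagen prolyl 4-hydroxylase fell with glycine, while the subunit they share did not pass the test. P4HA2 (ENSG00000072682, chromosome 5, 132191838 to 132295315) measured 60.2, 57.3 and 58.4 CPM with vehicle and 43.9, 44.9 and 43.3 CPM with glycine. The groups did not overlap, and the spread within each was small: the mean went from 58.6 ± 1.49 to 44.0 ± 0.805 CPM (SD, n = 3). This was a log2 change of -0.41 ± 0.06 (SE; edgeR adjusted p = 0.000619) and a level that decreased by 24.9%. P4HA2 passed the threshold in 14 of 14 other settings, with adjusted p-values from 5.35e-07 to 0.00504.

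P4HA1 (ENSG00000122884, chromosome 10, 73007217 to 73096974) measured 47.5, 42.0 and 46.8 CPM with vehicle and 36.9, 35.8 and 40.4 CPM with glycine. Every glycine library was again lower than every vehicle library. The mean went from 45.4 ± 2.98 to 37.7 ± 2.43 CPM (SD, n = 3), or by log2 a change of -0.27 ± 0.07 (SE; edgeR adjusted p = 0.0287). The call was less firm than that of P4HA2. The edgeR adjusted p rose to 0.0866 without vehicle replicate 1, 0.0635 without vehicle replicate 3, 0.0876 without glycine replicate 1, 0.111 without glycine replicate 2 and 0.0509 when libraries were scaled by their totals only.

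P4HB (ENSG00000185624, chromosome 17, 81843159 to 81860694) encodes protein disulphide isomerase, the beta subunit of the same enzyme, which also works alone in disulphide formation. It was by far the most abundant member, with 2010, 1735 and 2161 CPM with vehicle and 1848, 2031 and 2018 CPM with glycine. The groups overlapped, and the log2 change was 0.00 ± 0.09 (SE; 95% interval -0.20 to 0.20; edgeR adjusted p = 0.993). Per kilobase of exon, P4HB exceeded the summed alpha subunits 16.9-, 16.1- and 18.5-fold in the vehicle libraries and 20.4-, 22.7- and 20.9-fold in the glycine libraries. The summed alpha subunits went from 21.6 ± 1.12 to 17.4 ± 0.702 CPM per kilobase (SD, n = 3). The balance between them changed little, with P4HA1 at 68.0% ± 1.02 of the sum with vehicle and 70.2% ± 1.68 with glycine. Counted in reads rather than per length, P4HA1 was the smaller part, at 42.3 to 44.5% with vehicle and 44.4 to 48.3% with glycine. Which alpha subunit ranks higher thus depends on the exon lengths used. Exons of other genes overlap 9.97% of the P4HB exon length and 6.45% of that of P4HA2.

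P3H1 (ENSG00000117385, chromosome 1, 42746335 to 42767084), which hydroxylates single prolines in a complex with CRTAP and PPIB, fell with glycine, with the highest adjusted p of the 4 called genes. It measured 99.1, 85.4 and 105 CPM with vehicle and 76.4, 82.1 and 83.5 CPM with glycine. The groups stood apart by 1.97 CPM, between vehicle replicate 2 and glycine replicate 3. The mean went from 96.5 ± 10.1 to 80.6 ± 3.73 CPM (SD, n = 3), or by log2 a change of -0.26 ± 0.08 (SE; edgeR adjusted p = 0.0434). Its edgeR adjusted p was above 0.05 without vehicle replicate 1 (0.111), vehicle replicate 3 (0.126), glycine replicate 1 (0.146), glycine replicate 2 (0.0855) or glycine replicate 3 (0.0699), and with scaling by totals only (0.0706). It was 0.00759 without vehicle replicate 2, the vehicle library with the lowest value.

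SERPINH1 was the only one of the 10 genes called higher with glycine. The gene (ENSG00000149257, chromosome 11, 75562056 to 75572783) encodes HSP47, the chaperone that binds the folded procollagen helix, and it is a known heat shock gene. It measured 172, 141 and 183 CPM with vehicle and 202, 216 and 224 CPM with glycine. All glycine libraries were above all vehicle libraries, by at least 19.6 CPM. The mean went from 165 ± 21.5 to 214 ± 10.8 CPM (SD, n = 3), or by log2 a change of 0.37 ± 0.09 (SE; edgeR adjusted p = 0.0129) and a 29.3% higher level. Without glycine replicate 3 the edgeR adjusted p was 0.0621. Without vehicle replicate 2, the lowest vehicle library, the log2 change was 0.27 and the edgeR adjusted p was 0.0252.

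FKBP10 (ENSG00000141756, chromosome 17, 41812680 to 41823217) encodes FKBP65, a prolyl isomerase of the endoplasmic reticulum that is known to assist the PLOD2 protein. It measured 315, 279 and 329 CPM with vehicle and 301, 318 and 320 CPM with glycine. The groups overlapped, and the log2 change was 0.03 ± 0.07 (SE; 95% interval -0.13 to 0.18; edgeR adjusted p = 0.860). PLOD2 and the gene for its partner thus gave different values in the same libraries, -1.52 and 0.03, although the difference between them was not tested.

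Of the 9 genes other than PLOD2, 3 were called lower, 1 higher and 5 neither way, so 4 of 9 were called. Over all tested genes 13.3% were called, 6.54% lower and 6.71% higher. In 5 of the 9 the groups did not overlap (4 lower and 1 higher), which was the case for 31.6% of all tested genes. The median log2 change of the 9 genes was 0.00, the same to 2 decimals as that of all tested genes. All 10 genes passed the low-count filter. With 9 genes, 1 gene moves such a share by a wide margin, and P4HA1 and P3H1 lost their calls in the settings named above.

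**Figure D3:**
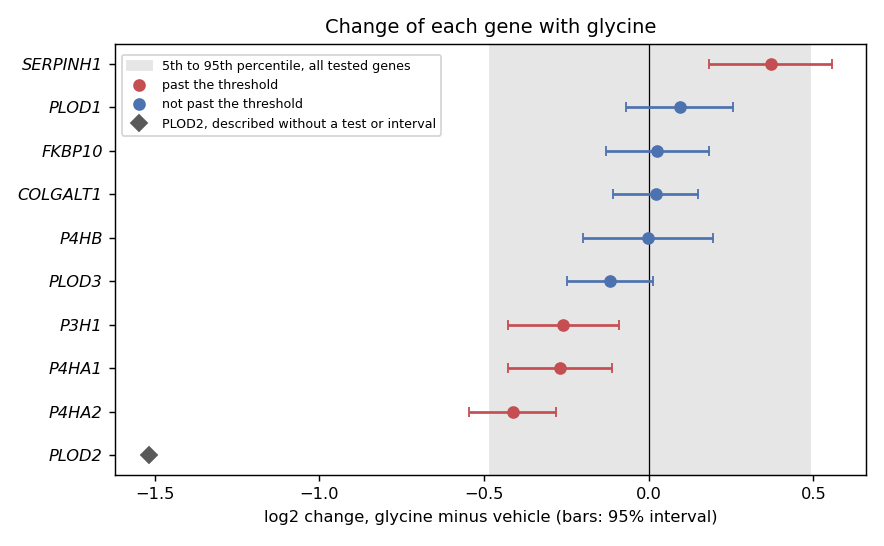
Log2 change of each gene (glycine minus vehicle) with its 95% interval from the edgeR fit, other than PLOD2, which has no interval. Red circles passed the adjusted threshold, blue circles did not, the grey diamond is PLOD2, and the shaded band spans the 5th to 95th percentile of all tested genes, -0.48 to 0.49. PLOD2, chosen for its fall, lies outside the band at -1.52 and the point values of the other 9 genes lie inside it.

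Levels can be compared between genes only per length. In CPM per kilobase of exon, the vehicle order was P4HB at 371 ± 40.7, FKBP10 at 71.9 ± 6.04, COLGALT1 at 49.3 ± 1.42, PLOD1 at 41.5 ± 3.66, PLOD3 at 38.8 ± 1.36, PLOD2 at 35.2 ± 0.658, SERPINH1 at 33.7 ± 4.37, P4HA1 at 14.7 ± 0.965, P3H1 at 14.3 ± 1.49 and P4HA2 at 6.89 ± 0.175 (mean ± SD, n = 3). Among neighbours in that order, the library ranges overlapped for PLOD1 and PLOD3, for PLOD2 and SERPINH1, and for P4HA1 and P3H1. In the glycine libraries PLOD2 lay at 12.3 ± 0.748, level with P4HA1 at 12.2 ± 0.787. SERPINH1 lay at 43.5 ± 2.19, level with PLOD1 at 44.3 ± 2.39. The exon length is that of all annotated transcripts joined, so a gene whose longest exons are rarely used is placed too low. The joined lengths run from 3093 bases for P4HA1 to 8502 bases for P4HA2. The 10 genes together made up 678 CPM per kilobase with vehicle and 659 with glycine, most of it P4HB.

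Vehicle replicate 2 was the lowest vehicle library for 8 of the 10 genes (80%), against 33.6% of all tested genes. Its median deviation from the vehicle mean was -0.12 on the log2 scale over the 10 genes and 0.00 over all tested genes. The deviation was deepest for SERPINH1 (-0.22), P4HB (-0.18) and P3H1 (-0.17), and near 0 for PLOD2 (-0.02) and P4HA2 (-0.03). The same library was lowest for 20 of 28 genes of the disulphide isomerase and chaperone list and for 7 of 10 hepatocyte markers. It also had the highest share of mitochondrial transcripts, 2.82% against 1.94 to 2.49% in the other libraries. Whether that library's preparation plays a part in these values was not tested. Without it, the log2 changes of the called genes were -0.43 for P4HA2, -0.32 for P4HA1, -0.34 for P3H1 and 0.27 for SERPINH1, and each stayed past the threshold.

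**Figure D4:**
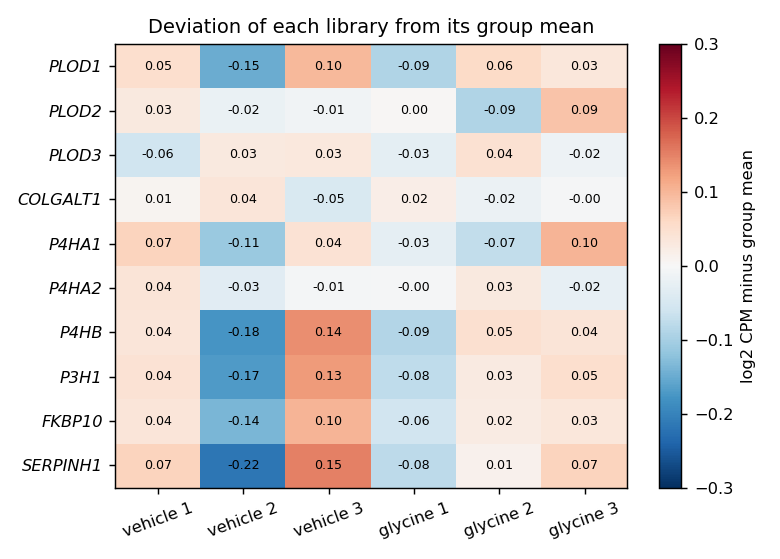
Deviation of each library from the mean of its own group, in log2 CPM, for the 10 genes (rows) and 6 libraries (columns). Blue is below and red above the group mean. Vehicle replicate 2 is blue in 8 of 10 rows, with SERPINH1 lowest at -0.22.

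The other genes of collagen modification, folding and export from the endoplasmic reticulum form a list of 16, of which 14 were tested. In it 3 genes of 14 were called, all lower, beside 6.54% of all tested genes called lower and 13.3% called in either direction, with a median log2 change of -0.08 against 0.00 over all tested genes. SEC24D, a coat protein needed for the export of large procollagen cargo, measured 88.0, 77.7 and 81.3 CPM with vehicle and 64.2, 53.5 and 64.4 CPM with glycine (log2 change -0.44, edgeR adjusted p = 0.00294). FKBP14, a prolyl isomerase of the endoplasmic reticulum, measured 39.7, 36.3 and 38.5 CPM and then 30.5, 26.8 and 30.8 CPM (log2 change -0.38, edgeR adjusted p = 0.00469). SLC39A13, a zinc transporter whose loss is known to impair lysyl and prolyl hydroxylation, measured 26.8, 26.6 and 31.2 CPM and then 21.4, 20.7 and 22.3 CPM (log2 change -0.40, edgeR adjusted p = 0.00541). None of these 3 genes had overlapping groups, and all 3 passed the threshold in 14 of 14 other settings. The P3H1 partners CRTAP and PPIB had log2 changes of -0.12 and 0.00 (edgeR adjusted p = 0.285 and 0.988), and SEC23A, the partner of SEC24D and the most abundant gene of the list, had -0.16 (edgeR adjusted p = 0.202). P4HA3 and P3H2 were not tested, with 3 counts each over the 6 libraries, too few to compare at this depth.

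Most collagen chains were under the low-count filter. Of 44 chain genes 17 were tested, and 2 rose and 3 fell, beside 13.3% of all tested genes called, with a median log2 change of -0.16. COL1A1, a chain of type I collagen, was low but rose from 2.31, 1.86 and 2.28 CPM to 4.29, 5.02 and 3.84 CPM (log2 change 1.03, edgeR adjusted p = 0.000585). Its partner COL1A2 was not tested, with 19 counts over the 6 libraries, and COL3A1 had 27. COL26A1 rose from 2.04 ± 0.244 to 3.02 ± 0.222 CPM (SD, n = 3; log2 change 0.56, edgeR adjusted p = 0.0247), and its adjusted p was 0.068 to 0.097 without vehicle replicate 1, vehicle replicate 2, glycine replicate 1 or glycine replicate 3. COL4A5, a basement membrane chain, fell from 42.7 ± 3.28 to 32.8 ± 4.38 CPM (log2 change -0.39, edgeR adjusted p = 0.0168), with 0.0621 when vehicle replicate 1 was left out and 0.0619 when glycine replicate 2 was. COL2A1 fell from 19.1 ± 0.573 to 15.5 ± 1.15 CPM (log2 change -0.30, edgeR adjusted p = 0.0251), with 0.069 and 0.114 in the same fits. COL27A1 had 75.0 ± 19.3 CPM with vehicle and 51.0 ± 7.93 with glycine (SD, n = 3). It was called lower (log2 change -0.56, edgeR adjusted p = 0.0295) although its groups overlapped, and the adjusted p was 0.12 with DESeq2, 0.118 without vehicle replicate 1, 0.0616 without glycine replicate 1 and 0.107 without glycine replicate 2. The most abundant chains were COL18A1, at 214 ± 37.0 and 217 ± 25.8 CPM, and COL9A3, at 185 ± 50.3 and 149 ± 15.4 CPM, with vehicle and glycine. They had log2 changes of 0.02 and -0.31 (edgeR adjusted p = 0.939 and 0.205). The edgeR adjusted p of COL9A3 was 0.0016 without vehicle replicate 2 and 0.000937 without a filter.

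Enzymes that cross-link collagen or remove its propeptides outside the cell gave 1 called gene of 10 tested, beside 13.3% of all tested genes. LOXL2, a lysyl oxidase that acts on lysine and hydroxylysine, measured 6.17, 6.91 and 5.87 CPM with vehicle and 8.83, 10.6 and 10.3 CPM with glycine. Its groups did not overlap (log2 change 0.66, edgeR adjusted p = 0.0012), and it passed in 14 of 14 other settings. LOX had a log2 change of -0.29 (edgeR adjusted p = 0.0547) and the more abundant LOXL4, BMP1 and PCOLCE had 0.16, -0.11 and 0.04 (edgeR adjusted p = 0.170, 0.307 and 0.785).

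The hydroxylases belong to a large family of iron and 2-oxoglutarate dependent dioxygenases, and the other members of it were examined for the same direction. Of 46 tested, 1 was called higher and 2 lower, which is 3 of 46 against the 13.3% over all tested genes, and the median log2 change was -0.06. ASPH, a hydroxylase of the endoplasmic reticulum, rose from 125 ± 10.8 to 158 ± 18.9 CPM (SD, n = 3; log2 change 0.34, edgeR adjusted p = 0.0216), with 0.0637 when vehicle replicate 2 was left out and 0.116 when glycine replicate 3 was. The histone demethylase PHF8 fell by 0.28 on the log2 scale (edgeR adjusted p = 0.0155), with 0.0518 without glycine replicate 1 and 0.0732 without glycine replicate 2. The RNA demethylase ALKBH5 fell by 0.29 (edgeR adjusted p = 0.0186), with 0.0555 without vehicle replicate 3, 0.0806 without glycine replicate 2 and 0.0521 without glycine replicate 3. The abundant HIF1AN and KDM5C had log2 changes of 0.05 and -0.08 (edgeR adjusted p = 0.709 and 0.511). Among 13 genes that supply ascorbate, iron or 2-oxoglutarate, 2 were called, both lower, beside 6.54% of all tested genes called lower. IDH1, which makes 2-oxoglutarate in the cytosol, measured 617, 612 and 625 CPM with vehicle and 472, 449 and 461 CPM with glycine (log2 change -0.42, edgeR adjusted p = 0.000708). GLUD1, which makes it in mitochondria, fell by 0.25 on the log2 scale (edgeR adjusted p = 0.0362), but the adjusted p was 0.0852 without vehicle replicate 2, 0.0686 without glycine replicate 1, 0.117 without glycine replicate 2 and 0.107 without glycine replicate 3. The ferritin genes FTL and FTH1 had log2 changes of -0.09 and 0.01 (edgeR adjusted p = 0.627 and 0.947). Exons of other genes overlap 62.4% of the FTH1 exon length, 16.4% of that of ASPH, 13.2% of that of GLUD1 and 11.2% of that of ALKBH5. In other lists such overlap also covers 27.2% of PPIB, 16.6% of PCOLCE, 16.4% of COL18A1, 12.2% of PDIA5 and 11.2% of TXNDC11.

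PLOD2, P4HA1 and P4HA2 are known HIF targets, so 29 other HIF targets were set beside them. Of these, 3 were called lower and 1 higher, which is 4 of 29 beside 13.3% of all tested genes, and the median log2 change was -0.01. INSIG2, which holds back sterol synthesis, measured 82.7, 74.2 and 85.7 CPM with vehicle and 51.5, 53.0 and 53.7 CPM with glycine (log2 change -0.62, edgeR adjusted p = 6.29e-05). BNIP3L, a mitophagy receptor, fell by 0.31 on the log2 scale (edgeR adjusted p = 0.01). NDRG1 fell by 0.25 (edgeR adjusted p = 0.0252), with 0.0615 without vehicle replicate 2, 0.053 without vehicle replicate 3, 0.11 without glycine replicate 1 and 0.077 without glycine replicate 3. HK2, a hexokinase, rose by 0.37 (edgeR adjusted p = 0.0316), with 0.0855 without vehicle replicate 2, 0.0689 without glycine replicate 1 and 0.147 without glycine replicate 3. The abundant glycolytic targets ENO1, ALDOA and SLC2A1 had log2 changes of 0.18, -0.01 and 0.10 (edgeR adjusted p = 0.249, 0.954 and 0.435). Of 11 tested HIF and SMAD signalling genes 0 were called by edgeR and by limma-voom and 1 by DESeq2, and 2 had an unadjusted edgeR p under 0.05, as did 4225 of all 15492 tested genes. HIF1A measured 220, 228 and 204 CPM with vehicle and 208, 176 and 195 CPM with glycine (log2 change -0.17, edgeR adjusted p = 0.153), and EPAS1 and TGFBR2 had 0.08 and -0.13 (edgeR adjusted p = 0.430 and 0.303). Transcript levels do not report the amount of HIF protein, which is set largely by its breakdown.

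The disulphide isomerases and chaperones that share the compartment with these enzymes gave 2 calls among 28, both lower, with a median log2 change of 0.00. Over all tested genes, 13.3% were called in either direction and 6.54% lower. The thioredoxin-domain gene TXNDC11 fell from 114 ± 1.49 to 94.4 ± 1.95 CPM (SD, n = 3; log2 change -0.27, edgeR adjusted p = 0.00728). PDIA5 was called lower (log2 change -0.33, edgeR adjusted p = 0.0441) with overlapping groups, and it lost the call without each library other than vehicle replicate 2 (adjusted p 0.0604 to 0.14), with totals only (0.073) and with limma-voom (0.0583). CALR, HSPA5 and CANX, the most abundant chaperones, had log2 changes of 0.03, 0.02 and -0.07 (edgeR adjusted p = 0.876, 0.901 and 0.596).

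**Figure D5:**
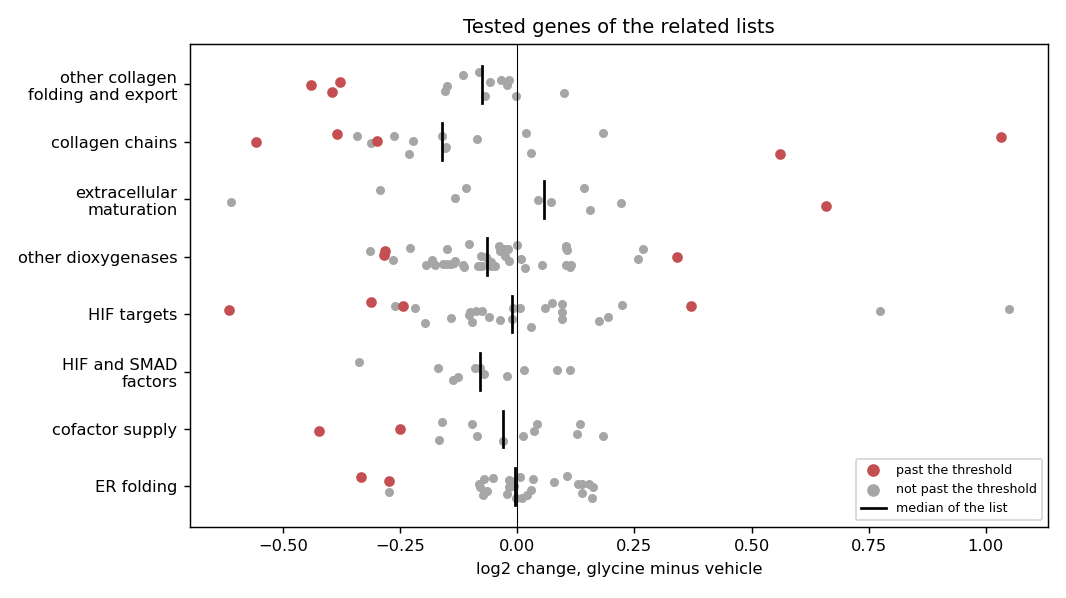
Log2 change (glycine minus vehicle) of each tested gene in 8 related lists. Each point is a gene, red where it passed the adjusted threshold and grey where it did not, and the black tick is the median of the list. The medians lie between -0.16 for the collagen chains and 0.06 for extracellular maturation.

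Position on chromosome 3 was not used to choose PLOD2, so its neighbours were examined. Of 20 genes within 1000000 bases, 2 were tested. PLSCR4, 28686 bases away, had 0.663 ± 0.117 CPM with vehicle and 0.798 ± 0.254 with glycine (SD, n = 3; log2 change 0.21, edgeR adjusted p = 0.691). PLSCR1, 351527 bases away, had 16.4 ± 0.641 and 16.7 ± 1.04 CPM (log2 change 0.03, edgeR adjusted p = 0.855). Neither of these phospholipid scramblase genes had a value near that of PLOD2. An antisense gene that overlaps part of the PLOD2 span had 20 counts over the 6 libraries, against at least 3010 for PLOD2 in each.

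The genes whose levels followed PLOD2 most closely over the 6 libraries, among 9110 compared, were SLCO4A1 (Pearson r = 0.9989 of log2 CPM), NRP2 (0.9982), C4BPB (0.9975), CLMN (0.9974) and ACSS1 (0.9973). They encode an organic anion transporter, a semaphorin and growth factor co-receptor, a complement regulator subunit, a calponin-domain protein and a mitochondrial acetyl-CoA synthetase. SLCO4A1 went from 58.7 to 33.7 CPM, NRP2 from 23.1 to 11.9, C4BPB from 47.6 to 37.1, CLMN from 24.7 to 12.8 and ACSS1 from 89.1 to 51.9 CPM. The 6 points form a vehicle and a glycine cluster, so r mostly restates the group difference and tight replicates, and it carries no p. On the same measure P4HA2 had r = 0.987, P4HA1 0.893, PLOD3 0.817, P3H1 0.801 and SERPINH1 -0.834. The remaining members were PLOD1 at -0.475, COLGALT1 at -0.376, FKBP10 at -0.173 and P4HB at -0.007.

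The libraries had the markers of hepatocyte-like cells. ALB, the main plasma protein of liver, lay between 5366 and 9038 CPM with vehicle and between 4682 and 6405 CPM with glycine. Its log2 change was -0.49 (edgeR adjusted p = 0.0764). ALB was called lower in 3 of 14 other settings. Its edgeR adjusted p was 4.14e-08 without a filter, 0.0402 with the replicate block and 0.00238 without vehicle replicate 2. APOB, the apolipoprotein of secreted lipoproteins, ranged over the 6 libraries from 7405 to 13184 CPM. Of the 10 hepatocyte markers, FGA was called higher (log2 change 0.35, edgeR adjusted p = 0.00541) and TTR and APOA1 lower (-0.32 and -0.26, edgeR adjusted p = 0.00921 and 0.0483). Over all tested genes 6.71% were called higher and 6.54% lower. APOA1 passed in 5 of 14 other settings: it lost its call without each library other than vehicle replicate 2 (adjusted p 0.0829 to 0.168), with upper-quartile scaling (0.0513), totals only (0.0543), a filter of 1 CPM in 3 libraries (0.05) and the replicate block (0.0804). Without vehicle replicate 2, 6 of the 10 hepatocyte markers were called, in a fit that called 926 genes higher and 1010 lower of 15829. Of 12 stromal, endothelial and leukocyte markers, 7 stayed under the low-count filter, including the fibroblast genes DCN, LUM and POSTN, of which POSTN had 0 counts, and none of the 7 was above 0.171 CPM in any library. Among the other 5, VWF, CDH5, CD68 and PECAM1 stayed at or below 4.50 CPM, and PDGFRB, a receptor of pericytes and stellate cells, went from 24.67 to 28.96 CPM with vehicle to 16.01 to 18.0 CPM with glycine (log2 change -0.66, edgeR adjusted p = 0.000137). VWF (log2 change -1.18, edgeR adjusted p = 0.0239) and CD68 (0.63, edgeR adjusted p = 0.0226) were also called, at 0.239 to 0.695 and 1.23 to 2.22 CPM. Both lost the call with DESeq2 (adjusted p 0.0713 and 0.0542), VWF also without each library other than vehicle replicate 2 (0.0558 to 0.102) and CD68 without each library other than vehicle replicate 3 (0.0573 to 0.0845). Exons of other genes overlap 85.8% of the CD68 exon length.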

How the data were processed

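Total RNA of 6 HepG2 libraries was sequenced by the authors, who deposited whole-number read counts per gene, 1 file per library and not normalised. The submitters' processing notes name Trimmomatic 0.36, STAR 2.5.2b, featureCounts and Subread 1.5.2 and the build GRCh38. The strand setting and the handling of reads with several matches are not given in the sources used here. Of 57500 genes listed, 56898 were named in GENCODE release 29, and 54749 had the same span there. Exon lengths, spans and overlaps came from the gene annotation deposited with the counts. Promoter windows came from RefSeq (GRCh38.p14).

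The deposited counts were tested with the edgeR 4.0.16 quasi-likelihood test in R 4.3.3 (two-sided), after the expression filter (minimum count 10, minimum total 15) and scaling by the trimmed mean of M values, with Benjamini-Hochberg adjustment over 15492 genes and a threshold of 0.05. Standard errors are the log2 change divided by the square root of F, and 95% intervals use edgeR's degrees of freedom. Correlations with PLOD2 and deviations within a group used log2 CPM with nothing added, and the check of the replicate numbers used a prior count of 2. The scripts were tested on simulated data. Replicates of a group were compared by chi-square of their counts, which gave 7.61 to 29.6 for each degree of freedom, far more than sampling noise, so no library was counted as a repeat of another.

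The genes, lists, tests and alternatives were chosen with earlier results of these data known. Named genes are the 10 genes, tested genes within 1000000 bases of PLOD2, the 5 genes of at least 10 CPM most correlated with it, and in each list up to 5 called genes with the smallest p and the 3 most abundant, with the hepatocyte and other-cell markers as ranges. Other genes (LOX, COL1A2, COL3A1, P4HA3 and P3H2) were named after their values were seen. Alternatives were other scalings and filters, DESeq2 1.42.0, limma 3.58.1 with voom, a fit with the replicate number as a block, and fits without each library in turn. The value of a single count speaks of counting error alone, since PCR copies of a molecule could not be told apart.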

Additional observations from a re-analysis of the deposited data

How the results depend on the processing

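No called value changed sign under the alternatives run. Values near 0 did so, such as the P4HB log2 change, which ran from -0.08 to 0.07 when libraries were left out. Leaving out each library gave 587 to 926 genes higher and 655 to 1010 lower, 2 to 4 of the 9 genes other than PLOD2 called, 1 to 6 collagen chains, 1 to 2 genes of extracellular maturation, 1 to 5 dioxygenases, 2 to 4 HIF targets, 1 to 2 disulphide isomerases and chaperones, 0 to 1 HIF and SMAD factors, 1 to 2 cofactor genes, 2 to 6 hepatocyte markers, 1 to 2 markers of other cells and 0 to 1 neighbours of PLOD2. Such fits have 1 library fewer in a group of 3. Scaling by totals only gave 2 of the 9 genes and 1 disulphide isomerase or chaperone. DESeq2 size factors and upper-quartile scaling each gave 2 genes of extracellular maturation. Without a filter there were 6 dioxygenases, 6 hepatocyte markers, 1 HIF or SMAD factor and 1 neighbour of PLOD2. The DESeq2 Wald test gave 1 HIF or SMAD factor and 1 marker of other cells, and limma-voom gave 1 disulphide isomerase or chaperone. The cause of these shifts was not tested. By reads, the PLOD2 share of PLOD1 to PLOD3 was 37.93% with vehicle and 17.69% with glycine. The same-numbered libraries had correlations of -0.058, -0.027 and -0.003 between their deviations from the group means. Differently numbered pairs ran from -0.198 to 0.214. These values cannot tell whether same-numbered libraries share a day or culture, which the labels do not give. With the replicate block, 866 genes were higher and 918 lower, 4 of the 9 genes were called, 1 cofactor gene was called rather than 2, and the PLOD2 log2 change was -1.52. Of the values for single genes and levels, 857 kept their side of the threshold or their level, 71 were no longer past it and 5 were newly past it. Under the other scalings the median log2 change of all genes was -0.0033 to 0.0176, against 0.0035, and 48.0 to 55.9% of calls were higher, against 50.7%. The 3 libraries a group limit the detectable change: the standard errors of the 9 genes other than PLOD2 were 0.06 to 0.09 on the log2 scale.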
